A study of Mus musculus with 8 samples.

Results

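The 33 genes described here encode the machinery of antigen processing and major histocompatibility complex (MHC) presentation in the mouse: the class I and class II chains, the proteins that cut, carry and load their peptides, and the factors that switch these genes on. They were chosen by symbol and not by a cutoff on a measured value, but with earlier results of these data known. All 33 were present among the 27133 genes of the count table. All 33 also passed the filter on low counts, which left 17028 genes for testing. They were measured by bulk RNA sequencing of the parietal bone, a flat bone of the skull vault, in C57BL/6J pups. An isotype control antibody (4 libraries, numbered 2 to 5) or an antibody against CSF1R (4 libraries, numbered 7 to 10) was given on postnatal days 2, 4 and 6, and perfused bone was collected on postnatal day 9. CSF1R is the receptor through which macrophages, osteoclasts and related myeloid cells receive survival signals, and the stated aim of the antibody was myeloid cell depletion. No genetic change was named for either group, and the labels did not say that each library was a separate pup, so p-values measure only the spread between these libraries.

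MHC class I molecules are made by nearly all nucleated cells and show fragments of the cell's own proteins to CD8 T cells. The proteasome or its interferon-inducible form, the immunoproteasome, cuts the fragments, and the TAP transporter moves them into the endoplasmic reticulum, where a loading complex fits them to a heavy chain paired with β2-microglobulin. MHC class II molecules are made mainly by dendritic cells, B cells and activated macrophages, and show fragments of engulfed proteins to CD4 T cells. The invariant chain guards the class II groove until endosomal proteases remove it and the DM proteins exchange its last fragment for a peptide.

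Class II genes and many class I genes share a promoter arrangement, an X box followed by a Y box, through which the transactivators CIITA (class II) and NLRC5 (class I) act. RefSeq promoter windows (GRCm38.p6, from 250 bases before to 50 after each gene's start) were matched for 26 of the 33 genes; H2-Ab1, Cd74, Ciita, Nlrc5, Cd1d1, Tap2 and Tapbpl were not matched. An X1 box (ACNGATG) followed on the same strand by a Y box (ATTGG), with a gap of at most 40 bases, was searched for. This pair was found for 6 of the 26 genes (23.1%) and for 0.355% of all 27025 genes with a window. The letters searched are those of this known MHC arrangement, so a higher share among the members is no separate result. A gene was counted if any of its windows held the letters. The 6 stretches below, all on the plus strand, are shown because they make the shared arrangement visible in 3 class II genes (H2-Eb1, H2-DMb1, H2-DMb2) and 3 class I genes (H2-D1, H2-Q4, H2-M3). Capitals mark the X1 box and then the Y box.
H2-Eb1, chr17:34305767-34305824: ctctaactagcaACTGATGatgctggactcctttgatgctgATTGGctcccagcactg
H2-DMb1, chr17:34153088-34153146: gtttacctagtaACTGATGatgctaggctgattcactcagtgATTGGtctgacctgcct
H2-DMb2, chr17:34145117-34145175: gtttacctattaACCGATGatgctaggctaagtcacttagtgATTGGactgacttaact
H2-D1, chr17:35262976-35263034: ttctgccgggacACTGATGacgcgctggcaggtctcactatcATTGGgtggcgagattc
H2-Q4, chr17:35379496-35379554: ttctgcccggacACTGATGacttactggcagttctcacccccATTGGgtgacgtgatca
H2-M3, chr17:37270171-37270229: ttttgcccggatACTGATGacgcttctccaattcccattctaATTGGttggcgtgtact

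The gap between the boxes was 22 bases in H2-Eb1 and 23 in the other 5. Searched on both strands, the X1 box alone was found for 10 of the 26 genes (38.5%, against 11.2% of all genes). The Y box alone was found for 20 (76.9%, against 41.1%). An interferon response element (GAAANNGAA) was found for 5 genes, B2m, H2-T23, H2-T22, Erap1 and Psme1 (19.2%, against 9.76%). An interferon gamma activated site (TTCNNNGAA) was found for 3, H2-DMb2, H2-M3 and Psmb8 (11.5%, against 9.55%). The enhancer A letters (GGGGATNCC) lay in the windows of H2-K1 and H2-D1 (7.69%, against 1.21%). These are matches of letters and were not tested as binding sites. Of the 33 genes, 19 lie on chromosome 17, which carries the mouse MHC.

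Ifi30, a gene outside the MHC on chromosome 8, is the one member called with all 8 libraries by edgeR, and by limma-voom; DESeq2 also called H2-DMb1 and H2-D1. Its upstream 100 bases (GRCm38.p6, chr8:70766664-70766763, minus strand) are shown for contrast, since its window held none of the letters searched, and no capitals are marked. The window of Psme2, a member not called, held none of them either, so their absence does not set Ifi30 apart.
Ifi30: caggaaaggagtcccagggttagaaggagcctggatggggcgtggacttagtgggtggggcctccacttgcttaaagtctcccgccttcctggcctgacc

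Library totals lay between 57496279 and 69118931 counts. Levels are given as counts-per-million (CPM) with TMM-scaled library sizes, and 3 counts corresponded to 0.0396 to 0.0573 CPM. Isotype libraries 3 and 4 stood apart. Their Spearman correlation with the other 6 libraries was 0.916 to 0.943 over all tested genes, against 0.987 to 0.997 among those 6 and 0.989 between the pair. Their deviation from the median library followed transcript GC content (Spearman 0.669 and 0.656 across genes), whereas the other 6 libraries gave values from -0.381 to -0.0320. Among the 33 antigen presentation genes, isotype 3 was the highest of all 8 libraries for 24. Isotypes 3 and 4 were the highest 2 isotype libraries for 23 and the lowest 2 for 6 (Nlrc5, B2m, Cd1d1, Erap1, Canx and Pdia3). The same counts were not made over all tested genes, so they do not set the members apart from other genes. Member results are therefore given with all 8 libraries and with isotypes 2 and 5 as the only controls. For all 33 members in the plot of fold changes, and for some in the text, values also come from a fit that removed each library's trend with GC content and length. Osteoblast and osteocyte genes of the labelled tissue were present, with Col1a1, the main collagen of bone, at 73608 to 153394 CPM.

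With all 8 libraries, 1 of the 33 members was lower after anti-CSF1R at an adjusted p under 0.05, against 0.822% of all tested genes, and 0 were higher, against 0.0235%. Adjusted p-values here are Benjamini-Hochberg values over all tested genes from edgeR's quasi-likelihood test, unless another tool is named. Against isotypes 2 and 5 alone, 2 members were lower (Ifi30 and B2m; 2.38% of all genes) and 0 higher (0.679% of all genes). After the GC and length correction, 2 were lower (Ifi30 and H2-D1; 2.32% of all genes) and 0 higher (0.558% of all genes). DESeq2 on all 8 libraries called 3 lower (Ifi30, H2-DMb1 and H2-D1; 3.69% of all genes) and 0 higher (0.869% of all genes). Ifi30 was the 1 member called in all of these fits, and the only one called by limma-voom.

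The module as a whole sat below 0 in the fit of all libraries, and near 0 in the fit without isotypes 3 and 4. Of the 33 log2 fold changes (anti-CSF1R minus isotype), 26 were negative with all libraries, 19 with isotypes 2 and 5 only and 23 after the GC and length correction, where 48.2%, 49.2% and 48% of all genes were negative. The members' median was -0.44, -0.02 and -0.14 in these fits, against 0.03, 0.00 and 0.02 for all genes. At an unadjusted p under 0.05, 7 members were lower (H2-DMb1, Ifi30, H2-K1, H2-D1, H2-T23, H2-M3 and Psmb9), against 12.6% of all genes, and 0 were higher, against 5.26%. Groups did not overlap for 4 lower members (H2-DMb1, Ifi30, H2-D1 and H2-T23), against 8.34% of all genes, and for 1 higher member (Erap1), against 6.61%. When isotypes 2 and 5 were the controls, 5 members lay wholly lower (those 4 and B2m), against 12.8% of all genes, and 3 wholly higher (H2-DMa, Erap1 and Psme1), against 11.2%.

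**Figure D1:**
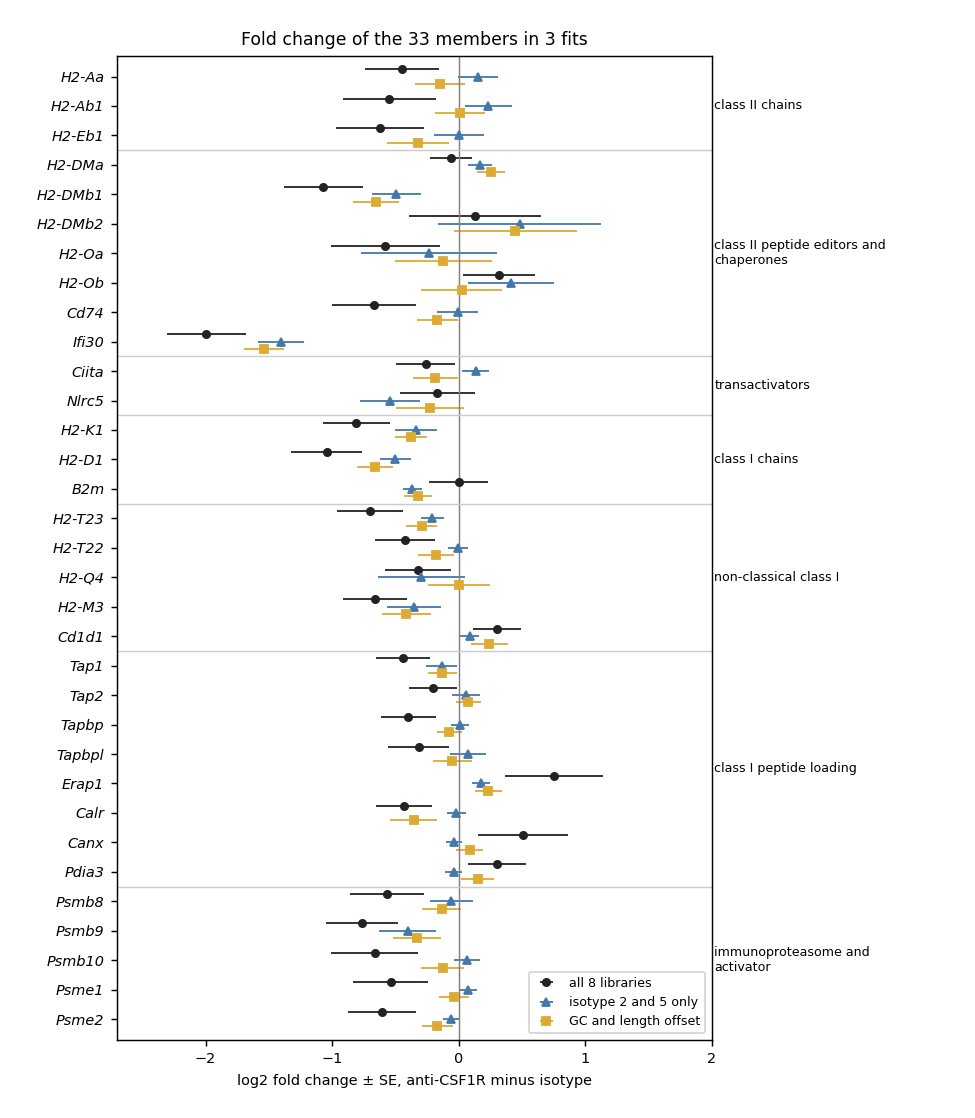
Log2 fold change (anti-CSF1R minus isotype, x axis) with its standard error for each of the 33 members, grouped by role, in the fit of all 8 libraries (black circles), with isotypes 2 and 5 only (blue triangles) and after the GC and length correction (yellow squares). Ifi30 lies far left in all 3 fits, at -1.99, -1.40 and -1.54, while most other members move toward 0 in the other 2 fits.

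Ifi30 encodes GILT, a lysosomal thiol reductase that opens disulfide bonds in engulfed proteins so that class II peptides can be cut from them. It was counted at 90.4, 217.5, 152.9 and 93.5 CPM in isotypes 2 to 5 and at 40.7, 37.4, 36.3 and 24.7 CPM in treated libraries 7 to 10. All 4 treated libraries lay below all 4 controls, and the 2 higher controls were isotypes 3 and 4. The means were 138.6 ± 60.0 and 34.8 ± 7.00 CPM (SD, n = 4 each), a 3.99-fold lower level, and the log2 fold change was -1.99 ± 0.31 (SE; adjusted p = 0.0267). Against isotypes 2 and 5 alone, Ifi30 fell 2.64-fold (log2 fold change -1.40, adjusted p = 0.0167), and after the GC and length correction the log2 fold change was -1.54 (adjusted p = 0.00140). Over 18 alternative fits, the adjusted p ran from 1.6e-07 to 0.119. It stood above 0.05 in 5 of them, which left out isotype 4 (0.0753) or anti-CSF1R library 7 (0.0975), 8 (0.116), 9 (0.119) or 10 (0.117), with log2 fold changes from -2.08 to -1.86. In bulk RNA, fewer cells of a type and less RNA per cell cannot be told apart.

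Most macrophage markers were lower in the same libraries as Ifi30. Csf1r, the gene of the targeted receptor, was counted at 237.6, 549.2, 420.6 and 238.0 CPM in isotypes 2 to 5 and at 64.4, 61.4, 62.6 and 39.4 CPM in treated libraries 7 to 10 (log2 fold change -2.66, adjusted p = 0.0156; -2.06 with isotypes 2 and 5 only). Of 9 macrophage markers, 6 were lower at the threshold (Adgre1, Csf1r, C1qa, C1qb, C1qc and Cd68), and the summed level of the 9 was 519.9 to 974 CPM in controls and 177.5 to 229.3 CPM in treated libraries. Mertk, a receptor for dying cells, had a log2 fold change in the other direction, 0.54 (adjusted p = 0.295; 0.08 with isotypes 2 and 5 only), and Mrc1 and Fcgr1 had -1.95 and -0.92, short of the threshold. Of 8 osteoclast markers, 6 fell at the threshold, with a median log2 fold change of -2.15. The part of either cell type in the Ifi30 result was not tested.

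The class II chains were present at low levels and showed no difference past the threshold. H2-Aa, the I-A alpha chain, was counted at 5.75, 13.8, 11.5 and 6.63 CPM in isotypes 2 to 5 and at 6.57, 8.03, 7.41 and 5.58 CPM in treated libraries 7 to 10. Its partner H2-Ab1, the I-A beta chain, stood at 4.69, 17.7, 10.4 and 6.79 CPM in controls and 6.23, 8.35, 6.43 and 6.01 CPM in treated libraries. Both chains were highest in isotypes 3 and 4, and the treated libraries lay within the range of the controls for H2-Ab1 and nearly so for H2-Aa. H2-Eb1, the I-E beta chain, stood at 5.43, 16.0, 8.09 and 6.08 CPM in controls and 5.10, 7.5, 6.03 and 4.42 CPM in treated libraries. The log2 fold changes with all libraries were -0.45 ± 0.29, -0.55 ± 0.37 and -0.62 ± 0.35 (SE), with adjusted p-values of 0.324, 0.332 and 0.300. Against isotypes 2 and 5 alone they were 0.16, 0.23 and 0.00 (adjusted p = 0.727, 0.639 and 0.998), and after the GC and length correction -0.15, 0.01 and -0.32. The sign of the class II chains thus depended on isotypes 3 and 4.

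Cd74, the invariant chain, was highest in isotypes 3 and 4, as were the chains it guards. It was counted at 16.0, 49.2, 29.3 and 20.1 CPM in isotypes 2 to 5 and at 18.0, 20.7, 19.4 and 13.9 CPM in treated libraries 7 to 10. The groups overlapped, and the log2 fold change was -0.67 ± 0.33 (SE; adjusted p = 0.283) with all libraries, -0.01 with isotypes 2 and 5 only and -0.17 after the GC and length correction. The standard error of the log2 fold change was 0.16 with isotypes 2 and 5 as controls. That set leaves out isotypes 3 and 4, the highest controls, so the smaller error does not show a better estimate.

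**Figure D2:**
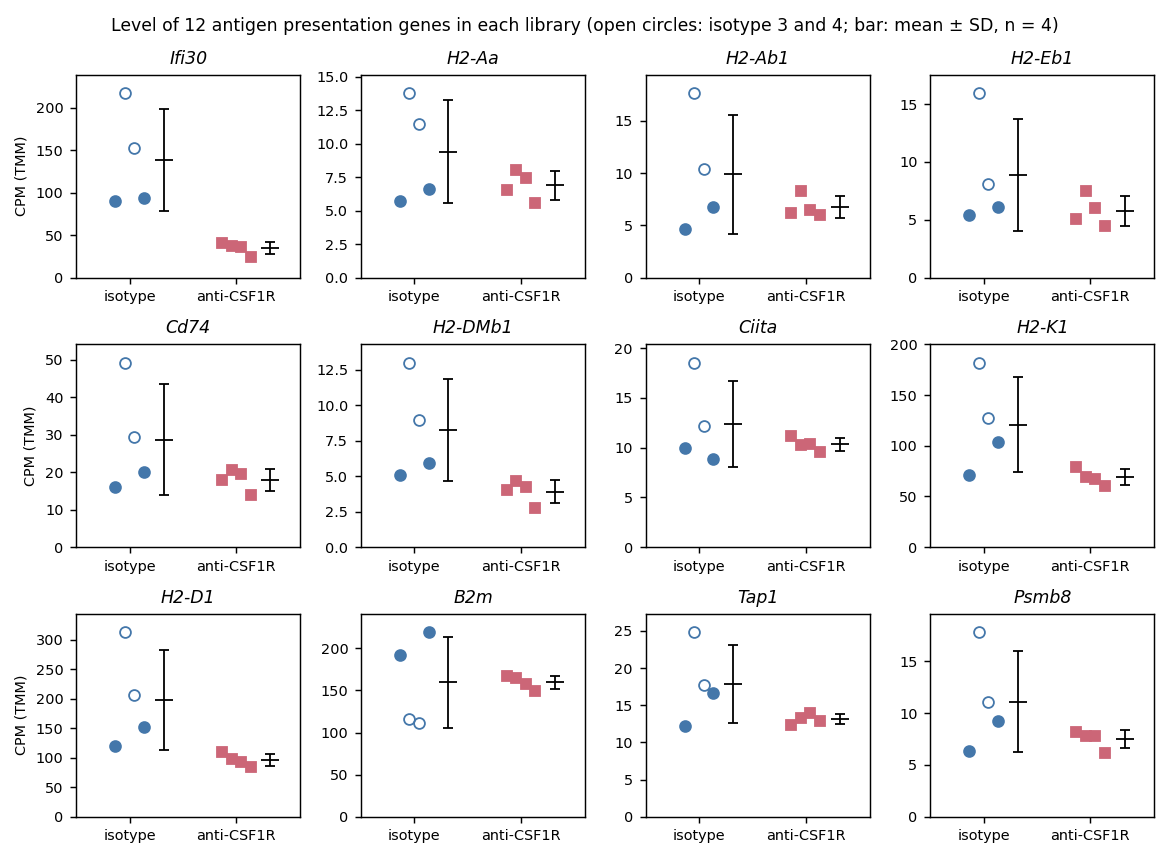
Level of 12 members in CPM (TMM-scaled, y axis starting at 0) in each library, with isotype libraries as circles, isotypes 3 and 4 open, anti-CSF1R libraries as squares, and bars for the mean ± SD (n = 4). Ifi30, H2-DMb1 and H2-D1 show separate groups, and in every panel but that of B2m isotype 3 is the highest library.

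Among the peptide editors, the DM and DO genes differed from one another. H2-DMb1, a beta chain of the DM editor, was counted at 5.12, 13.02, 8.97 and 5.91 CPM in isotypes 2 to 5 and at 4.04, 4.67, 4.21 and 2.77 CPM in treated libraries 7 to 10, so the groups did not overlap. Its log2 fold change was -1.07 ± 0.31 (SE) with an adjusted p of 0.198 in edgeR and 0.0260 in DESeq2, and it was -0.49 (adjusted p = 0.272) with isotypes 2 and 5 only and -0.65 (adjusted p = 0.0965) after the GC and length correction. H2-DMa, which supplies the alpha chain of the same editor, had a log2 fold change of -0.06 with all libraries, 0.17 with isotypes 2 and 5 only, 0.26 after the GC and length correction and 0.12 with library size as the only scaling, so it had no stable sign. The second DM beta gene, H2-DMb2, lay at 0.112 to 0.713 CPM (log2 fold change 0.13, and 0.48 with isotypes 2 and 5 only), and H2-Oa and H2-Ob, the chains of the DO protein that restrains DM, lay at 0.0990 to 0.496 and 0.759 to 1.76 CPM (-0.58 and 0.32, and -0.24 and 0.41 with isotypes 2 and 5 only). None of these 4 passed the threshold in any fit. H2-DMb1 and H2-DMb2 are close copies, and how reads shared between them were counted is not given in the sources.

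Neither transactivator differed past the threshold. Ciita, the class II transactivator, was counted at 10.01, 18.6, 12.2 and 8.85 CPM in isotypes 2 to 5 and at 11.2, 10.3, 10.3 and 9.59 CPM in treated libraries 7 to 10. Its log2 fold change was -0.26 (adjusted p = 0.433) with all libraries and 0.13 with isotypes 2 and 5 only. Nlrc5, its class I counterpart, stood at 2.27, 1.66, 1.82 and 4.13 CPM in controls and 1.90, 2.38, 2.34 and 2.18 CPM in treated libraries, with log2 fold changes of -0.17 (adjusted p = 0.684) and -0.55 (adjusted p = 0.318) in the same fits. For both genes the treated libraries lay within the range of the controls. The partners of these factors at the promoter and the interferon gamma pathway, 16 genes tested of 17 listed, gave 0 calls in either direction with edgeR, DESeq2 and limma-voom and 0 at an unadjusted p under 0.05, with a median log2 fold change of -0.02. Ifng itself lay at 0 to 0.0289 CPM, under the level of 3 counts. Its receptor chains and kinases were present: Jak1, the most abundant of the list, was at 76.7 to 168.1 CPM in controls and 170.5 to 183.0 CPM in treated libraries, and Ifngr1 at 88.4 to 141.3 and 136.8 to 147.3 CPM.

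The class I heavy chains stood higher per length than the class II chains, at 74.6 (H2-K1) and 94.1 (H2-D1) against 5.33 to 8.35 CPM per kb of transcript in controls, and were lower on average after anti-CSF1R, short of the threshold in the edgeR fit of all libraries. H2-K1 was counted at 71.0, 182.0, 127.0 and 103.3 CPM in isotypes 2 to 5 and at 79.6, 69.3, 66.9 and 60.3 CPM in treated libraries 7 to 10. Only the lowest control, isotype 2, lay inside the treated range, and the log2 fold change was -0.81 ± 0.26 (SE; adjusted p = 0.250), -0.34 (adjusted p = 0.419) with isotypes 2 and 5 only and -0.38 (adjusted p = 0.143) after the GC and length correction. H2-D1 stood at 120.0, 313.2, 206.3 and 151.8 CPM in controls and 110.2, 97.8, 92.4 and 84.2 CPM in treated libraries. Its groups did not overlap, in either set of controls, and the mean was 2.06-fold lower. Its log2 fold change was -1.04 ± 0.28 (SE; adjusted p = 0.161) with all libraries, -0.50 ± 0.12 (adjusted p = 0.0761) with isotypes 2 and 5 only and -0.66 (adjusted p = 0.0367) after the GC and length correction, and DESeq2 gave -1.09 (adjusted p = 0.0155). H2-K1, H2-D1 and the H2-Q and H2-T genes are alike in sequence, so reads shared between them make each one's count uncertain.

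B2m, the light chain that every class I heavy chain needs, ran against the heavy chains across the controls. It was counted at 191.7, 115.6, 111.6 and 219.4 CPM in isotypes 2 to 5 and at 166.7, 165.2, 157.6 and 149.6 CPM in treated libraries 7 to 10. Isotypes 3 and 4, which were the highest controls for H2-K1 and H2-D1, were the lowest of all 8 libraries for B2m, and isotypes 2 and 5 were the highest. With all libraries the means were 159.6 ± 54.3 and 159.8 ± 7.86 CPM (SD, n = 4 each; log2 fold change 0.00, adjusted p = 0.996), and the sign turned to -0.02 under RLE scaling. Set against isotypes 2 and 5, B2m was 1.29-fold lower after anti-CSF1R (log2 fold change -0.37 ± 0.08, SE; adjusted p = 0.0312), and after the GC and length correction it was -0.32 (adjusted p = 0.154). In those 2 fits all 3 class I chains were negative. The call of B2m came only from the fit that leaves out isotypes 3 and 4, its lowest controls. The smaller error of that fit (SE 0.08, against 0.23 with all libraries) does not show a better estimate.

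Of the 5 non-classical class I genes, 0 passed the threshold in any of the 3 fits, in DESeq2 or in limma-voom. At an unadjusted p under 0.05, 2 (H2-T23 and H2-M3) were lower, against 12.6% of all genes. H2-T23, the Qa-1 heavy chain that inhibits natural killer cells through NKG2A, was counted at 17.8, 37.7, 23.4 and 15.9 CPM in isotypes 2 to 5 and at 14.2, 15.9, 14.4 and 13.9 CPM in treated libraries 7 to 10. Its groups did not overlap, though isotype 5 and anti-CSF1R library 8 lay close together at 15.93 and 15.86 CPM (log2 fold change -0.70, adjusted p = 0.278; -0.21 with isotypes 2 and 5 only, adjusted p = 0.306). H2-M3, which presents formylated peptides, H2-T22, a ligand of some gamma delta T cells, and H2-Q4 had log2 fold changes of -0.66, -0.42 and -0.32 with all libraries and -0.36, -0.00 and -0.29 with isotypes 2 and 5 only. Cd1d1, which presents lipids to natural killer T cells, had 0.30 and 0.09.

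In the class I loading complex, 0 of 8 genes passed the threshold in edgeR, DESeq2 or limma-voom, 0 did at an unadjusted p under 0.05, and the log2 fold changes with all libraries lay on both sides of 0. Tap1, a chain of the peptide transporter, was counted at 12.2, 24.9, 17.7 and 16.6 CPM in isotypes 2 to 5 and at 12.4, 13.3, 14.0 and 12.9 CPM in treated libraries 7 to 10 (log2 fold change -0.44, adjusted p = 0.281; -0.14 with isotypes 2 and 5 only). Tap2, its partner, Tapbp (tapasin, which bridges TAP and class I), Tapbpl (TAPBPR, a peptide editor) and Calr (calreticulin, a chaperone) had log2 fold changes from -0.43 to -0.20 with all libraries and from -0.02 to 0.07 with isotypes 2 and 5 only. Canx (calnexin, a chaperone of new heavy chains) and Pdia3 (ERp57, a thiol partner of tapasin) ran the other way, at 0.51 and 0.30 with all libraries and -0.04 each with isotypes 2 and 5 only. Erap1, the aminopeptidase that trims peptides to class I length, was counted at 32.4, 14.1, 9.68 and 37.3 CPM in controls and at 39.0, 38.2, 40.1 and 40.5 CPM in treated libraries. All 4 treated libraries lay above all controls, but the distance from isotypes 2 and 5 was small (log2 fold change 0.75, adjusted p = 0.289; 0.18, adjusted p = 0.261 with isotypes 2 and 5 only).

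The immunoproteasome and its activator, 5 genes, had 0 calls in edgeR, DESeq2 or limma-voom. At an unadjusted p under 0.05, 1 was lower (Psmb9), against 12.6% of all genes. The 5 log2 fold changes with all libraries were negative, from -0.76 to -0.54. Psmb8, the catalytic subunit LMP7, was counted at 6.32, 17.8, 11.1 and 9.22 CPM in isotypes 2 to 5 and at 8.15, 7.79, 7.80 and 6.17 CPM in treated libraries 7 to 10 (log2 fold change -0.57, adjusted p = 0.289). Psmb9, the subunit LMP2, stood at 2.75, 6.30, 3.68 and 3.59 CPM in controls and 2.07, 2.93, 2.71 and 1.88 CPM in treated libraries (-0.76, adjusted p = 0.278). In both genes isotype 3 stood above the other 7 libraries and isotype 2 lay within the treated range. Psmb10, the catalytic subunit MECL-1, and Psme1 and Psme2, the PA28 activator chains, had -0.66, -0.54 and -0.61. The 5 values with isotypes 2 and 5 only ran from -0.40 (Psmb9) to 0.08 (Psme1), with a median of -0.06.

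**Figure D3:**
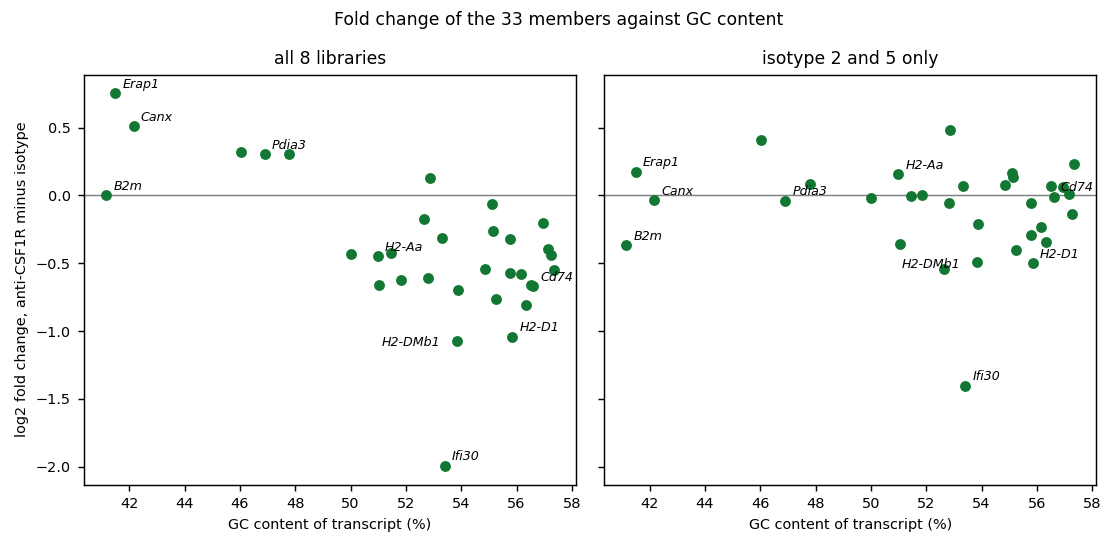
Log2 fold change (anti-CSF1R minus isotype, y axis) against transcript GC content (percent, x axis) for the 33 members, with all 8 libraries on the left and isotypes 2 and 5 only on the right. On the left the 6 members under 48% GC lie at or above 0 and nearly all others below it, while on the right both sides lie around 0 and Ifi30 remains low.

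Across the 33 members, GC content and log2 fold change had a Spearman correlation of -0.49 with all libraries, -0.08 with isotypes 2 and 5 only and -0.07 after the GC and length correction. These are descriptions across genes that share the same 8 libraries. The last value follows a correction that removes each library's trend with GC content, so a value near 0 was built in. Of the 6 members under 48% GC (H2-Ob, B2m, Cd1d1, Erap1, Canx and Pdia3), 6 had a positive value with all libraries, with a median of 0.31, and of the other 27 only H2-DMb2 did, with a median of -0.55. The medians with isotypes 2 and 5 only were 0.02 and -0.02.

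By role, the 3 fits gave different orders. The median log2 fold change of the class II chains was -0.55 with all libraries, 0.16 with isotypes 2 and 5 only and -0.15 after the GC and length correction, and that of the class II editors and chaperones was -0.58, -0.01 and -0.12. For the class I chains it was -0.81, -0.37 and -0.38, for the non-classical genes -0.42, -0.21 and -0.18, for the loading complex -0.26, -0.00 and 0.01, and for the immunoproteasome and activator -0.61, -0.06 and -0.14. The class I chains had the lowest median in each of the 3 fits, a comparison of medians over few genes with no test. Per kilobase of transcript, a scale that allows levels of different genes to be compared, the highest mean levels in controls were those of Calr (368.3 CPM per kb), B2m (185.6), Ifi30 (141.3), Pdia3 (140.8), H2-D1 (94.1) and H2-K1 (74.6). Cd74 stood at 20.3, H2-Aa at 8.35 and H2-Ab1 at 8.16 CPM per kb, and H2-DMb2, H2-Oa and Nlrc5 were lowest at 0.295, 0.299 and 0.326. In treated libraries Ifi30 stood at 35.4 CPM per kb, below H2-D1 (45.8) and H2-K1 (42.6).

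Ratios within each library compare members without any scaling between libraries. The ratio of each immunoproteasome subunit to the constitutive subunit it replaces showed no difference past the threshold. Psmb8 to Psmb5 had a log2 ratio of -2.50 ± 0.29 in controls and -2.34 ± 0.20 in treated libraries, Psmb9 to Psmb6 of -4.60 ± 0.38 and -4.70 ± 0.33, and Psmb10 to Psmb7 of -2.19 ± 0.36 and -2.42 ± 0.11 (SD, n = 4 each; exact two-sided permutation test over 70 assignments, p = 0.457, 0.714 and 0.314, adjusted over 5 ratios 0.571, 0.714 and 0.524).

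Relative to Csf1r, the class II member Cd74 and the class I member H2-K1 stood higher after anti-CSF1R. The log2 ratio of Cd74 to Csf1r was -3.89, -3.48, -3.84 and -3.56 in isotypes 2 to 5 and -1.84, -1.57, -1.69 and -1.498 in anti-CSF1R libraries 7 to 10, a difference of 2.04. That of H2-K1 to Csf1r was -1.74, -1.59, -1.73 and -1.20 in controls and 0.30, 0.17, 0.10 and 0.61 in treated libraries, a difference of 1.86. In both ratios all 4 treated libraries lay above all 4 controls, and isotypes 3 and 4 did not stand apart as a pair. The exact two-sided permutation p was 0.0286 for each (n = 4 each), the smallest that 70 assignments allow, and 0.0714 after adjustment over the 5 ratios. Without isotypes 3 and 4 the differences were 2.08 and 1.77. The 2 ratios share Csf1r, whose own level fell, and are not independent. They were chosen with the fall of Csf1r known, and any gene that fell less than Csf1r would move the same way. Their p-values are therefore not separate evidence about Cd74 or H2-K1.

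**Figure D4:**
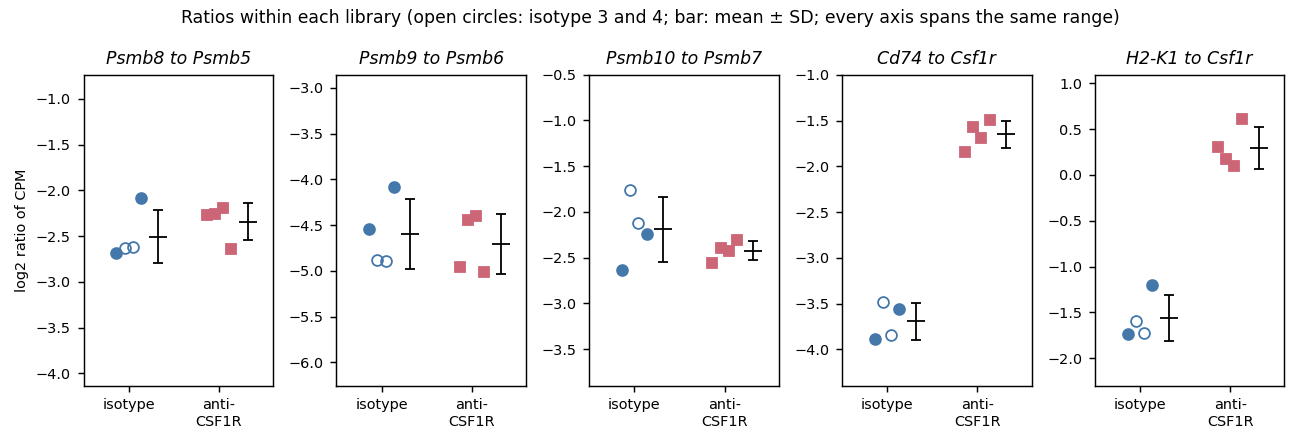
Log2 ratio of CPM (y axis) of 5 gene pairs in each library, with isotype libraries as circles, isotypes 3 and 4 open, anti-CSF1R libraries as squares, and bars for the mean ± SD (n = 4); each axis spans the same range. The groups overlap in the 3 proteasome panels and are separate by 2.04 and 1.86 in the Cd74 and H2-K1 panels.

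Genes of the same pathways outside the 33 were few among the calls. Of the class II proteases and surface partners, 10 tested of 11 listed, 1 was lower at the threshold: Cd83, a surface protein of mature dendritic and other myeloid cells that stabilizes class II molecules. Cd83 was counted at 6.16, 14.3, 12.5 and 6.16 CPM in isotypes 2 to 5 and at 3.09, 3.43, 2.71 and 1.98 CPM in treated libraries 7 to 10 (log2 fold change -1.80 ± 0.33, SE; adjusted p = 0.0487; -1.13 with isotypes 2 and 5 only, adjusted p = 0.0155). All treated libraries lay below all controls, and DESeq2 called Cd83 and Ctsb with all libraries, while limma-voom called 0 of the list. Ctsb, the lysosomal protease cathepsin B, was also lower in edgeR with isotypes 2 and 5 only (-0.31, adjusted p = 0.0444; -0.73, adjusted p = 0.213 with all libraries). At an unadjusted p under 0.05, 5 of the list were lower (Ctss, Ctsb, Lgmn, Cd86 and Cd83), against 12.6% of all genes, and 0 higher, against 5.26%. Groups did not overlap for 4 lower genes (Ctss, Ctsb, Lgmn and Cd83), against 8.34% of all genes. Ctss, Lgmn and Cd86 had log2 fold changes of -0.62, -0.72 and -0.99 with all libraries and -0.63, -0.27 and -1.35 with isotypes 2 and 5 only.

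The other lists gave 0 calls in either direction in the edgeR fit of all libraries. They were the constitutive proteasome (16 genes, median log2 fold change -0.42, and -0.01 with isotypes 2 and 5 only), interferon-stimulated genes (17 genes, 0.20 and -0.08), other class I-like chains and loading factors (10 tested of 14, -0.11 and 0.01) and cross-presentation genes (8, -0.16 and 0.04). At an unadjusted p under 0.05, 3, 1, 1 and 0 genes of these lists were lower, against 12.6% of all genes, and 0 higher, against 5.26%. DESeq2 and limma-voom called 0. Of the interferon-stimulated genes, Stat2 and Irf9, parts of the interferon signalling complex, were the most abundant, with Stat2 at 22.3 to 30.6 CPM in controls and 23.8 to 26.1 CPM in treated libraries, and Irf9 at 14.4 to 23.6 and 14.9 to 18.1 CPM.

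Markers of the cells that carry class II were read in the same libraries. Over all tested genes, 12.6% were lower and 5.26% higher at an unadjusted p under 0.05, to be set beside the counts below. Of 7 B cell markers, 0 passed the threshold in edgeR, DESeq2 or limma-voom, and 2 (Cd79b and Cd22) were lower at an unadjusted p under 0.05. Cd79a, a chain of the B cell receptor complex, stood at 5.86 to 13.1 CPM in controls and 4.23 to 8.50 CPM in treated libraries, and the summed level of the list was 25.7 to 42.1 and 20.2 to 39.3 CPM. Of 9 dendritic cell markers, 1 was lower, Itgax (log2 fold change -1.41, adjusted p = 0.0491), an integrin that macrophages also carry. DESeq2 called Itgax and Cd209a, and limma-voom called 0. At an unadjusted p under 0.05, 2 markers were lower (Itgax and Cd209a) and 1 higher, Clec9a, a receptor of cross-presenting dendritic cells, with a log2 fold change of 1.26 (adjusted p = 0.278; 0.71, adjusted p = 0.639 with isotypes 2 and 5 only; 0.0402 at the lowest over the alternatives). Flt3 and Xcr1 had 0.38 and 0.68 (adjusted p = 0.374 and 0.286), while Siglech, Ccr7, Zbtb46 and Batf3 had -0.40, -0.16, -0.16 and -0.11. Of the 9 values, 6 were negative with all libraries (median -0.16) and 3 with isotypes 2 and 5 only (median 0.06). The dendritic cell markers Xcr1 and Ccr7 stayed at 0.573 CPM or less in every library, and the list's summed level was 71.7 to 108.4 CPM in controls and 72.9 to 78.3 CPM in treated libraries, most of it Zbtb46, which endothelial cells express as well. Monocyte markers gave 0 calls among 5 with each of the 3 tools, and their summed level was 29.7 to 38.9 and 25.4 to 57.3 CPM. At an unadjusted p under 0.05, 1 was higher, Ccr2 (log2 fold change 1.01, and 0.51 with isotypes 2 and 5 only). Of the T and NK cell markers, 3 tested of 7 listed, 1 was lower, Trac (-1.42, adjusted p = 0.0296), at 1.45 to 1.67 CPM in controls and 0.404 to 0.693 CPM in treated libraries. The untested Cd3e, Cd3d, Cd3g and Ncr1 lay at 0 to 0.283 CPM, near the filter on low counts, so T cell RNA was scarce in both groups. Endothelial markers gave 0 calls among 6 with each of the 3 tools with all libraries and 3 higher at an unadjusted p under 0.05. Emcn was called higher with isotypes 2 and 5 only (log2 fold change 0.34, adjusted p = 0.0269), and had 0.77 (adjusted p = 0.274) with all libraries. Of the 6 endothelial markers, 5 lay wholly higher after anti-CSF1R, against 6.61% of all genes. Their summed level was 497.3 to 535.4 CPM in controls and 599.3 to 687.3 CPM in treated libraries for all 6. Muscle RNA differed between controls, with Acta1, the skeletal muscle actin, at 10.9 and 22.8 CPM in isotypes 2 and 3 and at most 0.462 CPM in the other 6 libraries. The part of these cell types in the levels of the 33 members was not tested.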

How the data were processed

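Per the labels' protocols, RNA from homogenized parietal bone (TRIzol, RNeasy) was made into TruSeq stranded mRNA libraries and read on a NovaSeq as paired ends of 101 bases. The authors deposited 1 table of raw counts per gene symbol. The submitters' processing notes name STAR 2.7.10b, featureCounts 1.6.3 and the builds GRCm38 and GRCm39, with no role; annotation, strand setting and the treatment of reads shared between genes are not given in the sources. Of the counts from 1 to 10, 82.8% to 84.7% were even, as when a pair adds 1 count for each mate.

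Groups came from the treatment labels. All genes were fitted in R 4.3.3 with edgeR 4.0.16 (filterByExpr, TMM, robust quasi-likelihood F-test of isotype against anti-CSF1R, Benjamini-Hochberg adjustment over 17028 genes, threshold 0.05). CPM use TMM-scaled library sizes. Floors of 3 counts cover counting error only. Alternatives were RLE scaling, library size alone, DESeq2 1.42.0, limma-voom 3.58.1, other filters on low counts, halved counts, isotypes 2 and 5 only, each library left out, and a library-wise correction for GC content and length entered as an offset (natural splines with 5 degrees of freedom, from the longest protein-coding GENCODE transcript, for 94% of tested genes). The same offset from the longest transcript of any kind was added after seeing the data. Ratios use log2 CPM with a prior count of 2 and an exact permutation test (scipy 1.17.1). The edgeR and permutation scripts were tested on simulated data.

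The members and lists were chosen with earlier results of these data known. Every member is named, and values in every library are given for members past the threshold, the member with the smallest p in each role group, and 12 genes central to class I and class II presentation. Of other lists, genes past the threshold are named, apart from those of the osteoclast list. For some lists with no such gene, up to 2 with the highest CPM are named. Further markers and pathway genes were named after their values were seen. Mx1, H2-T10 and Cd1d2 were not analysed here.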

Additional observations from a re-analysis of the deposited data

Results flagged for a closer look

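Among 76 groups of 4 libraries examined, 4 held a library far from the other 3, and chance flags about 1 group in 20. H2-Ob, a chain of the DO protein, was at 0.759 CPM in anti-CSF1R library 10, against 1.64 to 1.76 CPM in the other treated libraries. H2-Q4, a non-classical class I gene, was at 15.2 CPM in anti-CSF1R library 7, against 10.4 to 11.2 CPM in the others. The log2 ratio of Psmb8 to Psmb5 was -2.08 in isotype 5, against -2.69 to -2.62 in the other controls, and -2.64 in anti-CSF1R library 10, against -2.27 to -2.20 in the other treated libraries.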

How the results depend on the processing

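Ifi30 was negative in all 18 alternatives. The number of members called lower was 1 with all libraries, 3 with DESeq2, 2 with isotypes 2 and 5 only, 2 with the GC and length offset and 2 with the offset from the longest transcript of any kind, and 0 to 1 when 1 library was left out; that of members called higher was 0 throughout. Without isotype 4 or any 1 of the 4 treated libraries it was 0. Over all genes, calls ran from 0 (without anti-CSF1R library 7 or 8) to 777 (DESeq2), against 144. Of 591 member values under alternatives, 35 had the opposite sign, in 16 members. With isotypes 2 and 5 only these were H2-Aa (0.16), H2-Ab1 (0.23), H2-Eb1 (0.0021), H2-DMa (0.17), Ciita (0.13), B2m (-0.37), Tap2 (0.059), Tapbp (0.010), Tapbpl (0.073), Canx (-0.037), Pdia3 (-0.038), Psmb10 (0.066) and Psme1 (0.076). With the offset they were H2-Ab1 (0.010), H2-DMa (0.26), B2m (-0.32), H2-Q4 (0.0041) and Tap2 (0.076), and with the longest transcript of any kind H2-Ab1 (0.0093), H2-DMa (0.28), B2m (-0.29) and Tap2 (0.092). Library size alone turned H2-DMa (0.12) and moved the median of all genes from 0.03 to 0.19, and RLE scaling and DESeq2 turned B2m (-0.022 each). Leaving out 1 library gave ranges across 0 for H2-DMa (-0.16 to 0.024), H2-DMb2 (-0.22 to 0.33), Ciita (-0.39 to 0.0018), Nlrc5 (-0.32 to 0.20) and B2m (-0.14 to 0.19). Apart from the library or correction each alternative changes, the cause of these moves was not tested.

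The difference of the Psmb10 to Psmb7 log2 ratio turned to 0.016 with isotypes 2 and 5 only and ran from -0.38 to -0.089 without 1 library; that of Psmb9 to Psmb6 ran from -0.21 to 0.067, of Psmb8 to Psmb5 from 0.10 to 0.31, of Cd74 to Csf1r from 1.98 to 2.12 and of H2-K1 to Csf1r from 1.76 to 1.98. Without isotype 2, the adjusted exact permutation p of the Psmb10, Cd74 and H2-K1 ratios was 0.0476. With 1 library left out there are 35 assignments, and the smallest possible unadjusted p of that test is 0.0286. Psmb10 and Psmb7 differ in GC content (56.5% and 48.7%), so a library's trend with GC content need not cancel in their ratio. With isotypes 2 and 5 only the smallest possible p was 0.0667. No paired analysis was possible because the isotype and anti-CSF1R libraries carry no replicate number in common.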

Other observations

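Anti-CSF1R library 10 had the lowest level of the 4 treated libraries for 24 of the 33 members. The same count was not made over all tested genes, so it does not set the members apart from other genes. Library 10 was also the lowest of the 4 for Csf1r, at 39.4 CPM against 61.4 to 64.4 CPM, and for the summed macrophage markers, at 177.5 CPM against 206.3 to 229.3 CPM. B cell markers were lowest there as well, with a summed level of 20.2 CPM against 33.3 to 39.3 CPM. No test was run on these values, which describe 1 library.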
